A study of Drosophila melanogaster with 18 samples.

Results

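Ovaries in which the germline was mutant for non-stop were compared with FRT control ovaries of the same experiment, by RNA-seq of polyA RNA. The gene non-stop, whose symbol is not, encodes the ubiquitin protease of SAGA, a coactivator complex that also carries the histone acetyltransferase Gcn5. The comparison took in every gene with a mean of at least 1 RPKM over the 6 libraries, which was 7492 of the 15682 genes in the deposited table. RPKM are the reads on a gene divided by gene length and by a scaled library total. That length was equal or close to the whole annotated span of most genes, introns included, so levels of genes with long introns are understated against other genes. Each group had 3 libraries, and the whole series has 18 libraries in 3 experiments, which also cover ovaries labelled Ataxin-7 and ada2b, each with FRT controls of its own.

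All 6 libraries came from Drosophila melanogaster ovaries and were treated alike. Flies grew at 25 °C, larvae were heat shocked for 2 h at 37 °C on 2 days from day 2 after hatching so that germline clones formed, and females were given yeast for 2 to 3 days before dissection. The mutant genotype is labelled nonstop and the control genotype FRT, the recombination site used to make clones. The labels do not give the non-stop allele, the chromosome arm of the FRT site, the source of the recombinase or what else the FRT females carried. The replicates are labelled biological triplicates, and nothing says whether pools of females differed between them. Whole ovaries were dissected, so the RNA came from mutant germ cells together with somatic follicle cells and the muscle sheath, and fewer cells of a type cannot be told apart from less RNA per cell.

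SAGA contains a deubiquitinase module, made of Non-stop, Sgf11, E(y)2 and Ataxin-7, which removes ubiquitin from histone H2B after it has been added during transcription. Non-stop is known from the fly visual system, where it is needed in glia for the arrest of photoreceptor axons at their target layer. In the ovary the germline makes nurse cells, which load the oocyte with ribosomes, mRNA and metabolic enzymes, while the follicle cells make yolk protein, the vitelline membrane and the chorion.

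The 6 libraries held 32902742 to 37217778 reads on genes. Pearson correlations of log2(RPKM + 1) between replicates of a group ranged from 0.987 to 0.993, and those between groups from 0.953 to 0.970. The germline markers osk, bcd and bam and the follicle cell markers tj and Ilp8 were all detected, whereas 15 neuronal and glial markers, among them elav, nSyb and repo, summed to 0.405 to 0.510 RPKM in non-stop and to 0.368 to 0.543 RPKM in FRT. Muscle markers overlapped between the groups, since their sum was 118 to 197 RPKM in non-stop and 119.8 to 165 RPKM in FRT, and 0 of the 12 tested were called. In the libraries labelled Ataxin-7, used below for comparison, the gene Atxn7 was higher than in their FRT. It was at 12.5, 12.5 and 12.4 RPKM against 7.59, 7.92 and 7.65 RPKM, so its level does not bear out the label. The Ataxin-7 allele is not given, and the label could not be checked further.

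The gene not was examined first because it checks the labels. It was at 1.52, 1.82 and 1.58 RPKM in the non-stop libraries and 17.9, 21.4 and 23.98 RPKM in FRT. The groups did not overlap, and the non-stop mean was 7.77% of the FRT mean, a 12.9-fold difference. The change was -3.06 ± 0.11 (SE), limma adjusted p = 4.74e-06, and the exact two-sided permutation test gave the smallest p that 3 libraries against 3 allow, 0.1. The remaining signal rested on 194 to 222 reads per library, and which part of the gene they came from was not analysed here. Where a small tRNA gene overlaps not on the other strand, the reads of both cannot be told apart unless strand was used in counting, which is not given in the sources used here. FRT levels of not differed between experiments, at 21.1 RPKM here against 10.2 and 12.9 RPKM in the FRT controls of the Ataxin-7 and ada2b experiments, and all 15 other libraries were above the 3 non-stop libraries.

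Between non-stop and FRT, 3805 of the 7492 genes tested (50.8%) passed the test, limma on log2(RPKM + 1) with a Benjamini-Hochberg adjusted p under 0.05. Of these, 1929 rose (25.7% of the genes tested) and 1876 fell (25.0%). Counts in the gene lists below are to be read against these shares. Most changes were small, with a median size of 0.46 on the log2 scale among called genes, and 267 genes (3.56%) were both called and changed by at least 2-fold, 164 up and 103 down. Non-stop and FRT values did not overlap for 59.9% of all genes. The balance of rises and falls depends on the scale, because the authors' library totals carried a scaling factor, which was 1.06 to 1.08 for non-stop and 0.902 to 0.971 for FRT. When totals were used without the factor, the median change over all genes moved from -0.01 to 0.17, and 3096 genes rose while 962 fell, so that 76.3% of the called genes rose against 50.7% with the deposited values. Changes below are given on the deposited scale, log2(RPKM + 1), on which differences between low levels come out smaller than they are.

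The direction of change went with the level of a gene and with its length. Among the 1873 genes with the lowest means, up to 7.74 RPKM, the median change was 0.09, while among the 1873 with the highest means, from 38.5 RPKM, it was -0.22 and 884 genes fell against 236 that rose. Among the shortest 1873 genes, up to 1340 bp, 39.0% of called genes rose, and among the longest 1873, from 5005 bp, 66.7% rose. The part of level and length in the results for single gene groups was not tested.

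**Figure D1:**
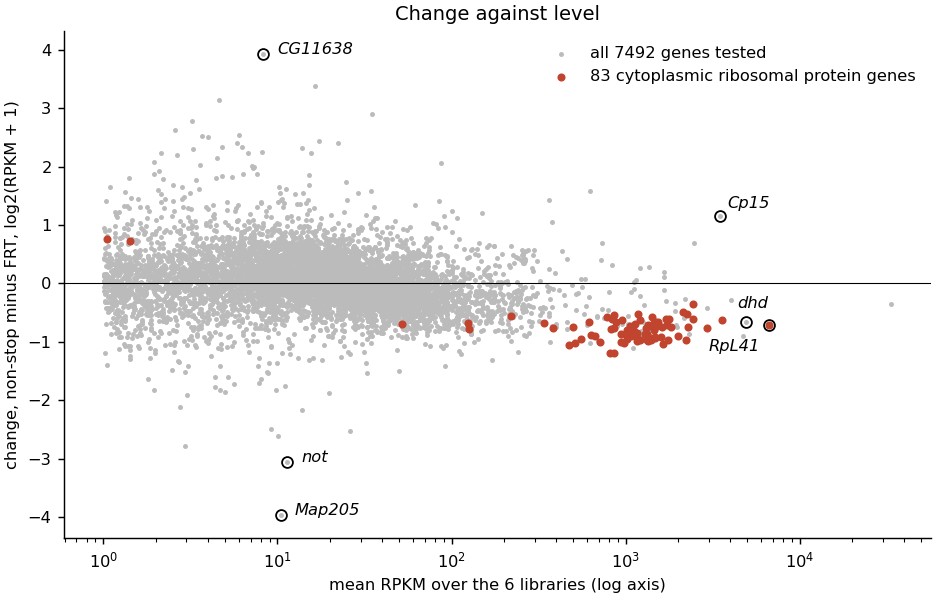
Change in non-stop against FRT (y axis, difference of log2(RPKM + 1) means) plotted against the mean RPKM over the 6 libraries (x axis, log scale) for the 7492 genes tested, 1 point per gene. The 83 cytoplasmic ribosomal protein genes are red, and 80 of them lie below 0 as called genes; circles mark 6 named genes, with not at -3.06 and CG11638 at 3.92.

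The cytoplasmic ribosomal protein genes, which encode the protein part of the ribosome, fell almost throughout. Of 83 tested, 80 fell and 2 rose, against 25.0% and 25.7% of all genes, and their median change was -0.77. RpL3, of the large subunit, was at 632, 525 and 425 RPKM in the non-stop libraries and 1202, 1262 and 1114 RPKM in FRT. The groups did not overlap, and the change was -1.19 ± 0.14 (SE), limma adjusted p = 0.000571. RpS20, of the small subunit, was at 538, 524 and 428 RPKM in the non-stop libraries and 1098, 1219 and 1055 RPKM in FRT, a change of -1.18 ± 0.11 (SE), limma adjusted p = 0.000239. RpL22 and RpS24 fell as well, by 1.05 and 1.04 on the log2 scale. RpL41, the gene with the highest mean of all called genes, was at 4762, 5074 and 5411 RPKM in the non-stop libraries and 7866, 9006 and 8010.4 RPKM in FRT, again without overlap, and changed by -0.71 ± 0.12, or by -0.11 and not called under quantile normalization. RpL38 was the only tested member that was not called, at 1399, 2279 and 2900.0 RPKM in the non-stop libraries and 2993, 2461 and 2609 RPKM in FRT, with 1 non-stop library above the FRT mean. The 2 members that rose, RpS10a and RpS19b, are paralogs at low abundance and were tested only because of their non-stop level. RpS19b, whose expression is typical of early germ cells, was at 2.28, 1.5 and 2.33 RPKM in the non-stop libraries and 0.881, 0.853 and 0.692 RPKM in FRT.

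Measured as a share of all reads on genes, which does not depend on the scaling factor, the 88 ribosomal protein genes took 10.5, 9.89 and 10.2% in the non-stop libraries and 15.6, 15.6 and 14.6% in FRT. The groups did not overlap (exact two-sided permutation p = 0.1, the smallest possible). Without the scaling factor 78 of the 83 still fell, with a median change of -0.57. Quantile normalization, which forces the same distribution of levels on each library, left 38 that fell and a median of -0.20. Genes of similar abundance outside the list also fell, though by less. With a mean of at least 500 RPKM, 73 ribosomal protein genes had a median change of -0.79, and 62 other genes had a median of -0.40, with 29 of them falling and 4 rising. Controls of the other experiments held other shares, 8.08, 7.96 and 8.06% in FRT of the Ataxin-7 experiment and 11.8, 11.5 and 10.05% in FRT of the ada2b experiment. The non-stop share thus lay inside the range of the 3 FRT groups, and FRT of its own experiment had the highest share of the 6 groups.

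Other genes of protein synthesis moved the same way in part. Among 35 translation initiation factor genes, 24 fell and 3 rose, and the median change was -0.50. The gene eIF3g1, for a subunit of the factor that binds the small ribosomal subunit, was at 159, 138 and 145 RPKM in the non-stop libraries and 262, 316 and 299 RPKM in FRT, a change of -0.98 ± 0.10 (SE), limma adjusted p = 0.000249. The gene eIF2A was at 100.2, 89.97 and 98.8 RPKM in the non-stop libraries and 190.0, 188 and 186 RPKM in FRT, and eIF3a and eIF2D fell by 0.83 and 0.82. Of 30 genes for aminoacyl-tRNA synthetases, which load tRNAs with their amino acids, 17 fell and 5 rose, with a median of -0.36. TyrRS fell most among them, from 125 ± 9.06 RPKM (SD, n = 3) in FRT to 59.8 ± 3.88 RPKM in non-stop. The CCT chaperonin, which folds actin and tubulin, had 6 of its 7 subunit genes lower and 0 higher, among them CCT6 at -0.65 ± 0.12. Genes of the nuclear pore followed, with 11 of 21 lower and 1 higher, led by Nup37 at -1.03 ± 0.09. The proteasome list had 12 of 34 lower and 1 higher, but 4 lower and 6 higher under quantile normalization and 2 lower and 6 higher without the scaling factor. Without that factor 13 synthetase genes were lower and 9 higher, with a median of -0.17. The counts were then 19 and 6 for initiation factors, 8 and 4 for the nuclear pore and 4 and 0 for CCT.

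Genes of energy metabolism and of building blocks were mostly lower. Of 67 nuclear genes of oxidative phosphorylation tested, 49 fell and 1 rose, with a median of -0.40, and ND-18 and ND-20, both of complex I, fell by 0.65 and 0.63. For the mitochondrial ribosome 47 of 73 fell and 0 rose, with a median of -0.27, and for the tricarboxylic acid cycle 11 of 18 fell and 0 rose, with a median of -0.33. The mitochondrial genome itself took 3.94% to 6.97% of reads in non-stop and 5.22% to 6.67% in FRT, which overlap, and 2 of its 20 tested genes fell and 1 rose. Without the scaling factor the oxidative phosphorylation and mitochondrial ribosome lists had 30 and 23 genes that fell and 2 and 7 that rose, and their medians moved to -0.21 and -0.08.

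Glycolysis had 12 of 15 genes lower and 2 higher, with a median of -0.55. Glyp, the glycogen phosphorylase that frees glucose from glycogen, was at 53.6, 48.9 and 47.1 RPKM in the non-stop libraries and 120.2, 145 and 138 RPKM in FRT, a change of -1.41 ± 0.09 (SE), limma adjusted p = 6.32e-05. Pgk and Gapdh1, enzymes further down the pathway, fell by 0.93 and 0.78. In the opposite direction, fbp, the fructose bisphosphatase of gluconeogenesis, rose from 9.93, 10.2 and 8.79 RPKM in FRT to 20.3, 18.9 and 20.9 RPKM in non-stop, with no overlap. Purine and pyrimidine synthesis had 12 of 16 lower and 0 higher, including Paics and Gart of the purine pathway. Amino acid metabolism had 8 of 14 lower and 0 higher. Its largest fall was in Ahcy, which removes the by-product of methylation reactions, at 148, 134 and 159 RPKM in the non-stop libraries and 335, 335 and 327 RPKM in FRT, a change of -1.17 ± 0.08 (SE), limma adjusted p = 7.79e-05. Oat, the ornithine aminotransferase, and Cth, of cysteine synthesis, fell by 1.07 and 1.06. Of 23 glutathione S-transferase genes, which detoxify, 14 fell and 3 rose, with GstE12 at -0.84 ± 0.09 and GstT2 at 0.75 ± 0.06. Without the scaling factor 8 of them fell and 5 rose.

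**Figure D2:**
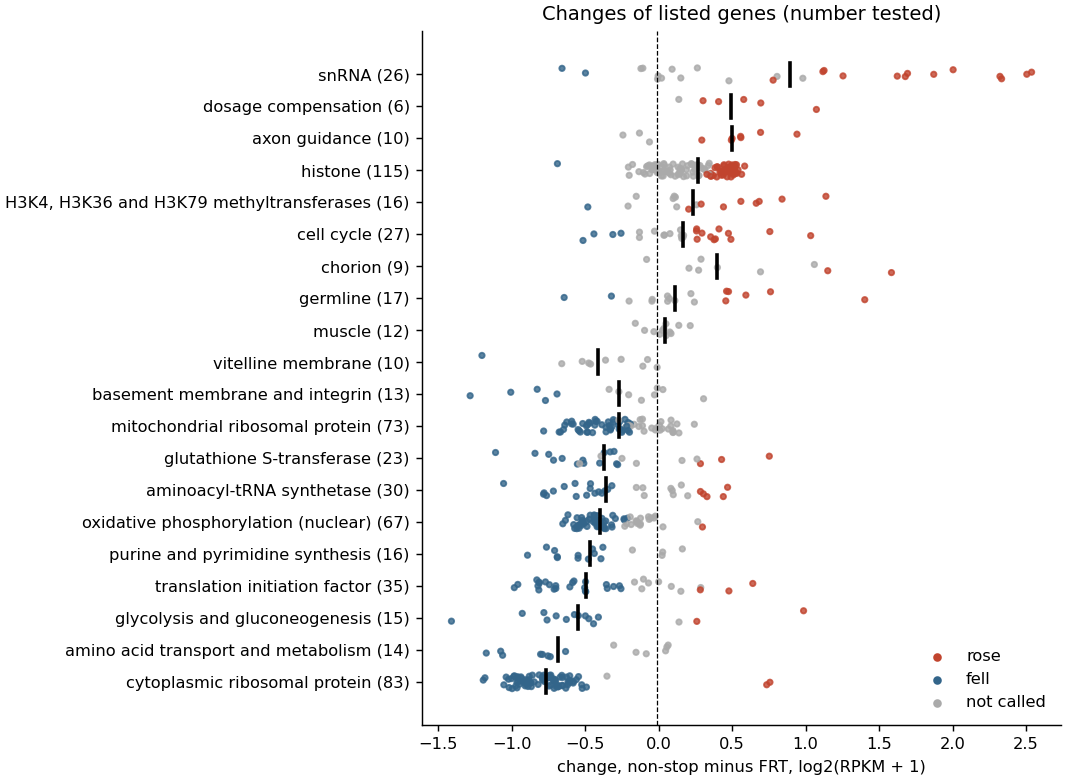
Changes in non-stop against FRT (x axis, log2(RPKM + 1)) of the tested members of 20 gene lists, 1 point per gene, red where the gene rose, blue where it fell and grey where it was not called. Black bars are list medians and the dashed line is the median of all genes; 80 of 83 ribosomal protein genes are blue, while 13 of 26 snRNA genes are red.

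Chromatin genes stood among those that rose. Of 16 listed genes, for methyltransferases of histone H3, their partners and the demethylase Kdm5, 8 rose and 1 fell. The list's median was 0.23 against -0.01 over all genes. Kdm5 was among those that rose, with a mean 1.64-fold higher in non-stop. The trithorax group gene ash1 was at 15.6, 16.7 and 15.8 RPKM in the non-stop libraries and 7.18, 6.16 and 6.89 RPKM in FRT, a change of 1.14 ± 0.07 (SE), limma adjusted p = 6.34e-05. Set1, the main H3K4 methyltransferase, was at 22.7, 26.3 and 23.2 RPKM in the non-stop libraries and 11.96, 13.1 and 13.99 RPKM in FRT, and trr and trx rose by 0.66 and 0.56. In chromatin remodelling and silencing, 15 of 37 rose and 5 fell. Sirt1, a deacetylase, was at 45.02, 45.7 and 43.6 RPKM in the non-stop libraries and 20.2, 18.1 and 20.1 RPKM in FRT, a change of 1.16 ± 0.07 (SE), limma adjusted p = 4.53e-05. The Polycomb group genes pho and esc rose by 0.98 and 0.84, and Nurf-38, of the nucleosome remodelling factor, fell by 0.67. Among the 6 tested genes of dosage compensation, 5 rose and 0 fell. Clamp, which encodes the protein that guides the male-specific lethal complex to the X, was at 48.7, 48.1 and 48.5 RPKM in the non-stop libraries and 22.9, 22.3 and 22.3 RPKM in FRT, a change of 1.07 ± 0.05 (SE), limma adjusted p = 2.99e-05, and msl-3 and msl-1 rose by 0.69 and 0.58.

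Subunits of SAGA itself moved in both directions. In the deubiquitinase module e(y)2 was at 29.1, 28.7 and 29.3 RPKM in the non-stop libraries and 37.3, 37.2 and 38.5 RPKM in FRT and fell by 0.36, while Sgf11 was at 35.9, 33.4 and 31.6 RPKM in the non-stop libraries and 24.8, 28.03 and 27.9 RPKM in FRT and rose by 0.31. Atxn7, the remaining subunit, was at 11.4, 9.76 and 10.2 RPKM in the non-stop libraries and 8.47, 9.29 and 9.34 RPKM in FRT and was not called. Of 13 genes of the SAGA core, 7 rose and 4 fell on the deposited scale, 3 and 3 after quantile normalization, and 3 and 4 with a common median. Spt20 was at 13.99, 12.8 and 14.5 RPKM in the non-stop libraries and 6.45, 5.7 and 6.48 RPKM in FRT, a change of 1.03 ± 0.08 (SE), limma adjusted p = 0.000101, and Nipped-A, the activator-binding subunit, rose by 0.65. Sf3b3 and Taf10b fell by 0.59 and 0.50. In the acetyltransferase module Gcn5, Ada2b, Ada3 and Sgf29 did not pass, with changes of -0.11, 0.09, 0.02 and 0.05. The gene chif encodes Chiffon, which joins these proteins in a separate complex, CHAT, and is not a SAGA subunit. It changed by 0.32 ± 0.11, and was not called when any of 5 of the 6 libraries was left out (limma adjusted p of 0.0565 to 0.113). Of 11 genes that add ubiquitin to H2B or remove it from histones, 5 fell and 2 rose (0 and 3 without the scaling factor), with Rtf1 of the PAF complex at 0.58 ± 0.10 and Ctr9 at -0.38 ± 0.09. The Integrator complex, which cuts snRNA precursors, had IntS6 at 16.1, 15.98 and 15.2 RPKM in the non-stop libraries and 5.81, 4.83 and 5.19 RPKM in FRT and IntS3 at 0.97 ± 0.10, while 5 of its 13 genes fell and 2 rose, or 3 and 4 without the scaling factor.

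Small nuclear RNAs, the RNA parts of the spliceosome, rose in 13 of 26 cases and fell in 2, with a median of 0.89. Of the 26, 6 had an FRT mean under 1 RPKM, and of the 20 others 9 rose and 2 fell. The copy snRNA:U2:34ABa was at 8.85, 12.5 and 11.5 RPKM in the non-stop libraries and 1.03, 1.78 and 0.51 RPKM in FRT, a change of 2.54 ± 0.22 (SE), limma adjusted p = 0.000182. A U5 copy, snRNA:U5:23D, was at 15.9, 25.2 and 30.5 RPKM in the non-stop libraries and 4.53, 2.85 and 4.24 RPKM in FRT. The minor spliceosome RNA snRNA:U4atac fell, by 0.50. The first non-stop library was the lowest of the 3 for 13 of the 13 that rose, and the list's median was 1.22 without it and between 0.71 and 0.99 without each other library. The U3 small nucleolar RNA takes part in processing of ribosomal RNA, and 3 copies of it rose, with snoRNA:U3:54Ab at 25.5, 34.6 and 29.997 RPKM in the non-stop libraries and 4.25, 4.49 and 5.28 RPKM in FRT and snoRNA:U3:54Aa at 2.41 ± 0.15. Over all small nucleolar RNAs 10 of 111 rose and 12 fell. Copies of U2 and U3 are nearly identical in sequence and share reads. The values of single copies are therefore uncertain, and rises of such copies are not separate results. Mature RNAs of these kinds lack the polyA tail on which the libraries were selected.

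Of 115 histone genes tested, replicated copies and replacement histones counted alike, 48 rose and 1 fell, with a median of 0.27, and copies of the linker histone gene such as His1:CG33834, at 21.1, 20.7 and 26.6 RPKM in the non-stop libraries and 13.1, 13.9 and 17.6 RPKM in FRT, were among the larger rises. The replicated genes lie in repeated units, share reads and mostly lack polyA tails, so single copies are uncertain and the 48 rises are not separate results. The list's shares of rises and falls were 41.7% and 0.87%, against 25.7% and 25.0% of all genes. The 1 that fell, His3.3A, encodes a replacement histone with a polyA tail and was at 91.5, 78.7 and 80.6 RPKM in the non-stop libraries and 129, 138 and 138 RPKM in FRT, a change of -0.69 ± 0.08 (SE), limma adjusted p = 0.000455.

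Of 17 germline markers 6 rose and 2 fell, with 10 and 1 without the scaling factor and 8 and 1 under quantile normalization. The listed markers took 0.621% to 0.667% of reads in non-stop and 0.528% to 0.56% in FRT, which do not overlap. Their summed level on the deposited scale did overlap, at 1152 to 1199 RPKM in non-stop and 1105 to 1178 RPKM in FRT. The largest change was in bcd, the maternal gene for the anterior determinant, at 16.1, 14.8 and 14.2 RPKM in the non-stop libraries and 5.8, 4.88 and 4.57 RPKM in FRT, a change of 1.40 ± 0.09 (SE), limma adjusted p = 6.66e-05. The germ plasm genes gcl and stau rose by 0.76 and 0.59, osk fell by 0.32 and mael, of the piRNA pathway, by 0.64. In the piRNA list 6 of 31 rose and 7 fell, or 11 and 4 without the scaling factor. The shares of 19.4% and 22.6% were near the 25.7% and 25.0% of all genes. Its largest rise was in cuff, a partner of Rhino at piRNA clusters, at 8.54, 8.75 and 8.42 RPKM in the non-stop libraries and 3.02, 2.83 and 2.87 RPKM in FRT. Meiosis genes rose in 8 of 19 cases and fell in 2. Of these, mei-P22, needed for meiotic double-strand breaks, was at 5.85, 5.73 and 5.81 RPKM in the non-stop libraries and 1.02, 0.874 and 1.11 RPKM in FRT, a change of 1.76 ± 0.09 (SE), limma adjusted p = 2.55e-05, and spn-D and c(3)G rose by 0.99 and 0.59. The differentiation gene bam, which marks early germline cysts, was at 17.3, 15.9 and 21.5 RPKM in the non-stop libraries and 9.64, 12.04 and 12.1 RPKM in FRT.

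Egg activation genes included the largest fall of all. Map205, which encodes a microtubule-associated protein that binds Polo kinase, was at 0.359, 0.382 and 0.401 RPKM in the non-stop libraries and 18.4, 24.1 and 19.4 RPKM in FRT, a change of -3.96 ± 0.11 (SE), limma adjusted p = 2.48e-06. The FRT mean was 54.1-fold above the non-stop mean. The gene mtrm, for an inhibitor of Polo, was at 254, 229.9 and 249 RPKM in the non-stop libraries and 384, 540.0 and 559.8 RPKM in FRT and fell by 0.995. Subunits of the PNG kinase, which starts translation of maternal mRNAs, went apart, as png fell by 0.74 and gnu rose by 0.49. In the cell cycle list 12 of 27 rose and 4 fell, or 44.4% and 14.8% against 25.7% and 25.0% of all genes. The inhibitor dap was at 30.7, 32.04 and 27.7 RPKM in the non-stop libraries and 14.7, 13.4 and 14.5 RPKM in FRT, a change of 1.03 ± 0.07 (SE), limma adjusted p = 9.28e-05, and CycD rose by 0.76 while CycB3 fell by 0.51. In the list of replication licensing and origin firing 3 of 27 rose and 5 fell, or 10 and 4 without the scaling factor. The shares of 11.1% and 18.5% were below those of all genes. PCNA, dpa and RfC4, which act at replication forks, fell by 0.64, 0.66 and 0.69, and PolA1, of DNA polymerase alpha, rose by 0.63. The thioredoxin dhd, one of the most abundant maternal transcripts, was at 3780.3, 3565 and 3984 RPKM in the non-stop libraries and 5041, 6452 and 6534 RPKM in FRT, a change of -0.66 ± 0.14 (SE), limma adjusted p = 0.00529. Under quantile normalization dhd changed by -0.10 and was not called.

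Follicle cell genes changed less evenly between libraries. Of 7 markers of follicle cell identity and stage 4 fell and 1 rose. The transcription factor gene tj was at 16.4, 19.7 and 7.52 RPKM in the non-stop libraries and 30.3, 26.8 and 22.7 RPKM in FRT, with the third non-stop library lowest, and changed by -0.92 ± 0.30 (SE), limma adjusted p = 0.0365. It was not called without FRT library 1 or 2 (limma adjusted p = 0.0980 and 0.0854). Ilp8, an insulin-like peptide of late follicle cells, was at 66.6, 70.9 and 95.6 RPKM in the non-stop libraries and 174, 175 and 124 RPKM in FRT and fell by 1.01. Col4a1 and vkg encode the collagen IV chains of the basement membrane around each egg chamber. Col4a1 was at 11.6, 9.81 and 5.64 RPKM in the non-stop libraries and 29.6, 20.03 and 19.3 RPKM in FRT, a change of -1.28 ± 0.25 (SE), limma adjusted p = 0.00447, and vkg fell by 1.01. Over the basement membrane and integrin list 5 of 13 fell and 0 rose. The yolk protein genes were lowest in the third non-stop library too, and only Yp3 passed the test, at 346, 339.9 and 203 RPKM in the non-stop libraries and 602, 519.9 and 366 RPKM in FRT, while Yp1 and Yp2 overlapped between groups. Without FRT library 1, FRT library 2 or non-stop library 3, Yp3 was not called (limma adjusted p = 0.106, 0.0986 and 0.0839). Of 10 vitelline membrane genes 1 fell, fs(1)M3 at 18.5, 21.7 and 8.54 RPKM in the non-stop libraries and 36.8, 38.5 and 33.5 RPKM in FRT.

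Chorion genes, which are made in the last stages of the egg chamber, went up in 2 of 9 cases and down in 0. Cp15 was at 5429, 3788 and 5081 RPKM in the non-stop libraries and 3275, 1617 and 1802 RPKM in FRT, a change of 1.15 ± 0.27 (SE), limma adjusted p = 0.00993. Cp18 was at 1259.8, 738 and 737 RPKM in the non-stop libraries and 599, 217.8 and 194 RPKM in FRT, also without overlap, and the other 7 did not pass, with values such as 1623, 1635 and 1109 RPKM in the non-stop libraries and 1376, 1824 and 644 RPKM in FRT for Cp38. The third FRT library had the lowest chorion share, as the 9 genes took 0.724, 0.665 and 0.311% of reads in the FRT libraries and 1.03, 0.916 and 0.892% in non-stop. Without this library the list's median change went from 0.40 to -0.14, though Cp15 and Cp18 remained called. Without FRT library 2 or non-stop library 1, Cp18 was no longer called (limma adjusted p = 0.0556 and 0.0542), and the 2 genes were not called either when no filter was set on low genes. In the list of ecdysone synthesis and response 4 of 10 fell and 2 rose. That is 40% and 20%, against 25.0% and 25.7% of all genes. Of those that fell, sad had a non-stop mean under 1 RPKM and was tested only because FRT was high. Genes of synthesis, a task of follicle cells, were among those lower, with sro at 2.91, 3.13 and 1.83 RPKM in the non-stop libraries and 7.76, 6.47 and 6.14 RPKM in FRT, and spo and sad at -0.90 ± 0.21 and -0.74 ± 0.14, while the nuclear receptor gene ftz-f1 rose by 0.41. In the EGFR pathway list 4 of 16 rose and 1 fell, or 25% and 6.25% against 25.7% and 25.0% of all genes. The kinase gene rl and the exchange factor gene Sos rose by 0.64 and 0.52, and brn by 0.51. The gene that fell, the EGFR target kek1, was at 1.12, 1.56 and 0.714 RPKM in the non-stop libraries and 4.0, 3.19 and 2.92 RPKM in FRT, a change of -1.05 ± 0.17 (SE), limma adjusted p = 0.00174.

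Some genes known from testis were higher. Of 26 testis and sperm markers, whose summed level was 16.7 to 19.3 RPKM in non-stop and 10.8 to 11.02 RPKM in FRT, 4 reached a mean of 1 RPKM, of which 2, tomb and Taf12L, did so only through their non-stop level, so no count of rises is read from them, while 10 were at 0 in all 6 libraries, among them the sperm protein genes dj and ProtA. The tombola gene, tomb, was at 3.5, 3.89 and 7.1 RPKM in the non-stop libraries and 0.567, 0.797 and 1.02 RPKM in FRT, a change of 1.66 ± 0.22 (SE), limma adjusted p = 0.000857, and mia and Taf12L, which encode testis-specific TAFs, rose by 1.23 and 0.81. The remaining tested marker, janB, reached the highest level of the list, 8.88 RPKM, and was not called, with a change of -0.11. Rpt3R, the testis copy of a proteasome subunit, was at 8.11, 7.75 and 8.19 RPKM in the non-stop libraries and 1.18, 1.5 and 1.96 RPKM in FRT, a change of 1.83 ± 0.12 (SE), limma adjusted p = 6.34e-05, in a list where 12 genes fell. VhaAC39-2, a paralog among the proton pump subunit genes, was at 4.25, 3.76 and 4.49 RPKM in the non-stop libraries and 0.13, 0.0239 and 0.151 RPKM in FRT. It was tested only because of its non-stop level. Heat shock genes rose in 6 of 13 cases and fell in 3, or 46.2% and 23.1% against 25.7% and 25.0% of all genes. Of the 12 with an FRT mean of at least 1 RPKM, 5 rose and 3 fell. Hsp70Aa was at 10.8, 10.95 and 14.99 RPKM in the non-stop libraries and 2.61, 1.97 and 2.36 RPKM in FRT, a change of 1.99 ± 0.14 (SE), limma adjusted p = 7.79e-05, and its near-identical copy Hsp70Ab at 1.97 ± 0.15 shares its reads. Hsp68 and Hsp23 rose by 1.62 and 1.58, and Hsp26, abundant in nurse cells, was at 3150.0, 2715 and 3233 RPKM in the non-stop libraries and 1705, 1872 and 2063 RPKM in FRT, whereas Hsp22 and Hsp110 fell by 0.99 and 0.81.

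Of 36 long noncoding RNAs 16 rose and 5 fell, but 6 of those that rose had an FRT mean under 1 RPKM and were tested only because non-stop was high. Of the 30 with an FRT mean of at least 1 RPKM, 10 rose and 5 fell. Antisense RNAs gave 7 tested genes, of which 5 passed the filter through non-stop alone, so no count of rises is read from them. The lncRNA lncRNA:CR43857 was at 7.38, 9.75 and 8.98 RPKM in the non-stop libraries and 0.883, 0.81 and 1.07 RPKM in FRT, and asRNA:CR43460 at 2.78, 3.12 and 2.99 RPKM in the non-stop libraries and 0.663, 0.497 and 0.666 RPKM in FRT. Where such an RNA overlaps a coding gene, the reads of both cannot be told apart unless strand was used in counting.

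In protein folding of the endoplasmic reticulum 10 of 16 genes fell and 5 rose. Without the scaling factor the counts were 6 and 6. The stress sensor genes Ire1 and Atf6 rose, with Ire1 at 9.12, 9.19 and 9.55 RPKM in the non-stop libraries and 4.98, 3.86 and 4.23 RPKM in FRT and Atf6 at 0.74 ± 0.10, and the chaperone gene Gp93 went down, at 101, 86.6 and 85.5 RPKM in the non-stop libraries and 155, 174 and 172 RPKM in FRT, a change of -0.87 ± 0.09 (SE), limma adjusted p = 0.000293. In the list of maternal mRNA control 6 of 25 rose and 6 fell, shares close to those of all genes, with 11 and 2 without the scaling factor and 9 and 4 under quantile normalization. Genes for translational repressors that rose were brat, at 8.65, 7.91 and 7.8 RPKM in the non-stop libraries and 4.2, 4.03 and 4.53 RPKM in FRT, and smg, at 132, 139 and 156 RPKM in the non-stop libraries and 96.2, 85.04 and 103 RPKM in FRT, and the gene enc, which acts in germline cysts, rose by 0.94. The cell death gene hid was at 1.83, 1.86 and 1.57 RPKM in the non-stop libraries and 0.693, 0.434 and 0.646 RPKM in FRT, a change of 0.79 ± 0.12 (SE), limma adjusted p = 0.00128, while the inhibitor gene Diap1 fell by 0.45. The gene hid was tested only because of its non-stop level. In the junction list p120ctn, a partner of cadherin, was at 18.8, 24.1 and 22.1 RPKM in the non-stop libraries and 10.1, 9.07 and 9.56 RPKM in FRT, and 5 of 24 rose and 1 fell. That is 20.8% and 4.17%, against 25.7% and 25.0% of all genes. In lipid metabolism ACC, for the first step of fatty acid synthesis, fell by 0.76, and Desat1 and LpR2, a lipoprotein receptor, by 0.66 and 0.59, and the droplet protein gene Lsd-2 rose by 0.44.

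Signalling and immune genes gave a mixed picture. Of the GNBP family, recognition proteins for microbial cell walls, 3 genes rose, in an immune recognition list where 9 of 22 rose and 3 fell. GNBP3 was at 13.5, 11.7 and 12.3 RPKM in the non-stop libraries and 2.1, 2.76 and 3.2 RPKM in FRT, a change of 1.88 ± 0.12 (SE), limma adjusted p = 6e-05, and GNBP2 and GNBP1 rose by 1.57 and 1.08. GNBP2 was tested only because of its non-stop level, with 35 reads in all in FRT against 552 in non-stop. Of the 21 listed genes with an FRT mean of at least 1 RPKM, 8 rose and 3 fell. In axon guidance, the process for which non-stop was first studied, 10 of 23 listed genes in the table reached 1 RPKM, of which 7 rose and 0 fell. The guidance receptors PlexB and Eph and the ligand Ephrin were the leading ones, with PlexB at 8.08, 10.6 and 8.7 RPKM in the non-stop libraries and 4.45, 3.74 and 4.61 RPKM in FRT, a change of 0.94 ± 0.11 (SE), limma adjusted p = 0.000547. Eph and Ephrin rose by 0.69 and 0.56, and all 3 lie on chromosome 4. In the SCAR and Arp2/3 list of actin regulators 4 of 16 rose and 4 fell, shares close to those of all genes, with 5 and 1 without the scaling factor and 2 and 7 with a common median. Arp2 changed by 0.53 ± 0.09 and Cyfip by -0.44 ± 0.08. In the Notch pathway 3 of 13 rose and 4 fell, or 5 and 3 under quantile normalization. These shares, 23.1% and 30.8%, were near the 25.7% and 25.0% of all genes. The genes neur and Su(H) rose by 1.07 and 0.94, and 2 genes of the E(spl) complex, targets of the pathway, fell by 0.82 and 0.79. In the insulin and TOR list 6 of 19 rose and 3 fell (31.6% and 15.8%), or 4 and 4 under quantile normalization. The kinase partner gene raptor and Pdk1 rose by 0.97 and 0.81, and the insulin-like peptide genes Ilp8 and Ilp6 fell by 1.01 and 0.78.

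Chromosome 4 is small and mostly heterochromatic. Of its 56 tested genes 31 rose and 11 fell, so that 75% were called against 50.8% on the 5 long arms, and their median change was 0.42 against -0.01. The kinase gene Dyrk3 was at 20.2, 24.1 and 19.8 RPKM in the non-stop libraries and 5.81, 6.85 and 7.38 RPKM in FRT, a change of 1.54 ± 0.11 (SE), limma adjusted p = 7.8e-05. CG31998 was at 20.9, 26.3 and 19.5 RPKM in the non-stop libraries and 8.04, 7.75 and 7.06 RPKM in FRT, and pho followed with 0.98, while mav, a ligand of the activin family, fell by 0.98. The median stayed at 0.41 under quantile normalization and was 0.59 without the scaling factor. In the other mutants the genes of chromosome 4 tested there had medians of 0.25 in the libraries labelled Ataxin-7 (54 genes) and -0.02 in ada2b (55 genes), against -0.02 and -0.17 on the long arms. Around not on 3L, 4.17% of 96 genes within 1 Mb were called and changed by at least 2-fold, against 4.56% of 833 genes more than 5 Mb away.

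**Figure D3:**
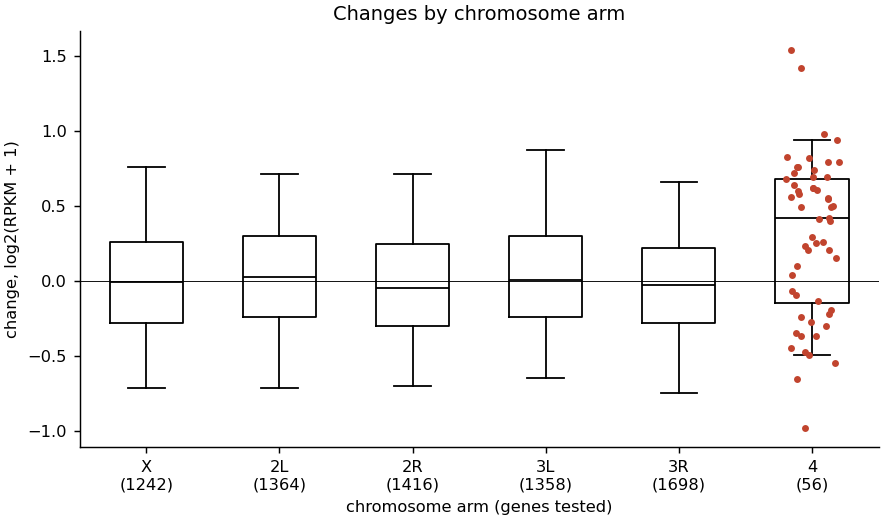
Changes in non-stop against FRT (y axis, log2(RPKM + 1)) of the tested genes by chromosome arm. Boxes span the quartiles with the median as a line, whiskers run from the 5th to the 95th percentile, and red points are the 56 genes of chromosome 4, whose median was 0.42.

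The genes at both ends of the ranking were chosen among called genes whose groups do not overlap. Of the leading rises, CG11638, CG32814, CG2961, CG4650, SkpC and snRNA:LU were tested only because non-stop was high. Their FRT means were 0 to 0.51 RPKM. Map205, CG13032, Cyp12d1-p, Cyp12d1-d and CG10877 were tested only because FRT was high. Over all genes tested, 97 of 130 with an FRT mean under 1 RPKM rose. For a non-stop mean under 1 RPKM, 52 of 111 fell. CG11638, a gene of the X with no name of its own, rose most and was at 16.2, 14.5 and 18.6 RPKM in the non-stop libraries and 0.12, 0.149 and 0.159 RPKM in FRT, a change of 3.92 ± 0.10 (SE), limma adjusted p = 2.48e-06. It overlaps CG32814 on the same strand, which was at 8.66, 8.83 and 9.78 RPKM in the non-stop libraries and 0.116, 0.144 and 0.151 RPKM in FRT, so the reads of the pair cannot be told apart. The noncoding RNA lncRNA:CR43837, also on the X, was at 28.5, 35.05 and 28.7 RPKM in the non-stop libraries and 1.89, 1.85 and 2.38 RPKM in FRT, and the small nucleolar RNA snoRNA:185 at 53.9, 71.5 and 62.4 RPKM in the non-stop libraries and 5.14, 9.61 and 8.31 RPKM in FRT. CG4650 had 0 reads in all 3 FRT libraries and 5.3, 5.12 and 5.1 RPKM in non-stop, which is at least 65.9-fold higher when the FRT level is set to 3 reads per library. SkpC, of a family of ubiquitin ligase subunits, was at 6.32, 5.38 and 9.29 RPKM in the non-stop libraries and 0.296, 0.587 and 0.205 RPKM in FRT. CG2961 and CG10654 rose by 2.78 and 2.40.

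Falling genes at this end included enzymes of hormone and toxin breakdown. Jheh3, a juvenile hormone epoxide hydrolase, was at 2.33, 1.95 and 1.99 RPKM in the non-stop libraries and 15.6, 16.4 and 16.8 RPKM in FRT, a change of -2.48 ± 0.08 (SE), limma adjusted p = 3.65e-06. The cytochrome P450 genes Cyp12d1-p and Cyp12d1-d, near-identical neighbours whose split of reads is uncertain, fell by 2.12 and 1.82. Idgf2, of the chitinase-like growth factors, was at 3.43, 5.32 and 4.56 RPKM in the non-stop libraries and 22.4, 21.7 and 25.7 RPKM in FRT. The genes pst and Hesr fell by 1.88 and 1.83, and CG10877 by 1.91. CG13032 was listed at 0.011, 0 and 0.0117 RPKM in the non-stop libraries and 6.44, 5.6 and 5.68 RPKM in FRT, on 2 reads in all against 1338. For CG14292 and Mur18B, a mucin-related gene, the FRT libraries themselves spread widely, at 33.2, 17.6 and 5.06 and 91.5, 35.2 and 12.9 RPKM, against 1.58, 0.982 and 2.28 and 6.54, 2.84 and 7.31 RPKM in non-stop. In the fit of all 18 libraries neither was called (limma adjusted p = 0.0510 for CG14292 and 0.114 for Mur18B), nor was Mur18B with no filter (0.0507). Leaving out FRT library 1 or 3 moved Mur18B to -1.85 or -3.22 and CG14292 to -2.05 or -3.30.

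**Figure D4:**
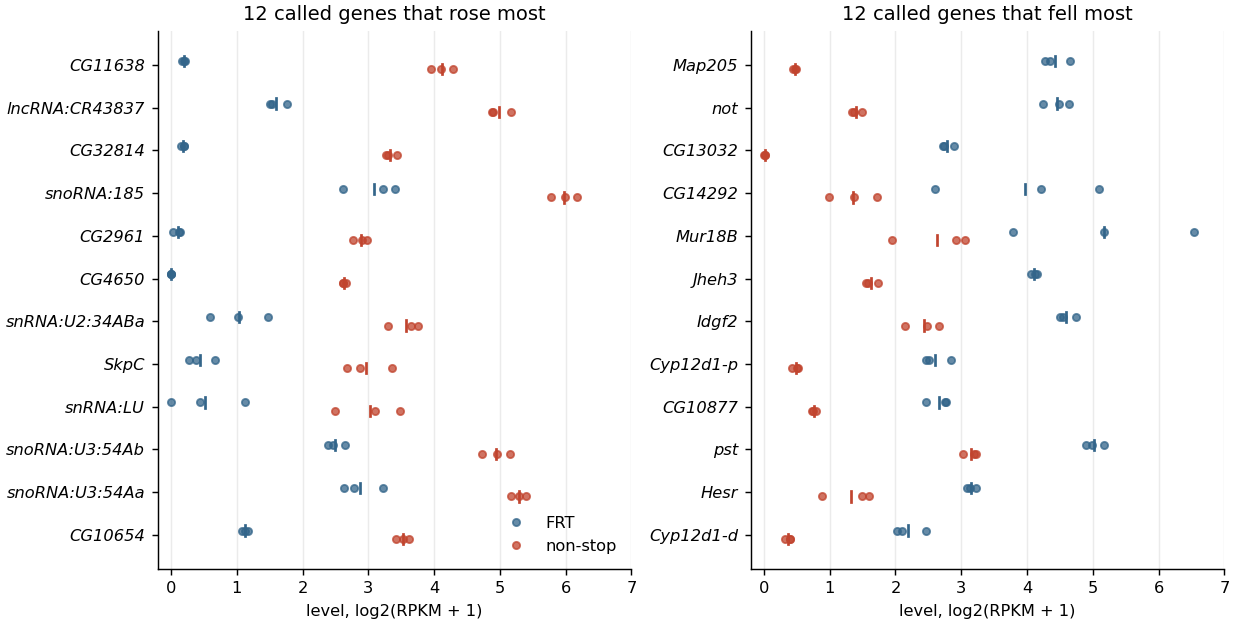
Levels of the 12 largest called rises and the 12 largest called falls (x axis, log2(RPKM + 1)), with 1 point per library, non-stop in red and FRT in blue, and a bar at each group's mean. The 3 non-stop points lie apart from the 3 FRT points for each gene, as the choice requires, and the FRT points of CG14292 and Mur18B are the most spread.

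To see which changes were shared with other SAGA mutants, the change in non-stop was set against that in the libraries labelled Ataxin-7 and ada2b, each relative to FRT of its own experiment, in a limma interaction over 12 libraries. Levels were scaled within each experiment, and experiment and mutant cannot be told apart. The change differed for 2808 of 7482 genes (37.5%) between non-stop and the libraries labelled Ataxin-7, and for 5381 of 7618 (70.6%) between non-stop and ada2b. For the ribosomal protein genes the change was more negative in non-stop for 79 of 82 against the libraries labelled Ataxin-7, where 16.8% of all genes were more negative, and for 82 of 83 against ada2b, where 27.0% were. Their own medians were -0.14 in the Ataxin-7 experiment and 0.34 in the ada2b experiment. RpS20, for example, changed by -0.12 and 0.04 there. Chorion genes had a median change of -4.93 in ada2b, and all 9 differed from non-stop in the interaction. For snRNA genes the own medians were 1.09 in the libraries labelled Ataxin-7 and 0.11 in ada2b. Of 24 compared with the former, 2 were more positive in non-stop and 3 more negative, against 20.7% and 16.8% of all genes. Of 22 compared with ada2b, 10 and 2 were, against 43.6% and 27.0%. The RNAs snoRNA:U3:54Ab and snoRNA:U3:54Aa were at 21.2 and 27.0 RPKM in the libraries labelled Ataxin-7, against 0.825 and 0.498 RPKM in their FRT.

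Of the 24 genes at the ends, 21 changed differently in non-stop than in the libraries labelled Ataxin-7, and 21 changed differently than in ada2b. Since the 24 were chosen by their change in non-stop, these counts are a description. Map205 had 19.04 RPKM against 21.5 RPKM in the FRT of the Ataxin-7 experiment, and 3.39 against 23.6 RPKM in that of ada2b, where it fell by 2.49. The levels in all 6 groups show which group stands out. CG11638 was at or below 0.76 RPKM in the 5 other groups, so non-stop alone was high. For CG13032 the FRT group alone was high, since the 4 groups of the other experiments were between 0 and 0.0235 RPKM. For the 12 leading rises, non-stop had the highest mean of the 6 groups in 10 cases, and for the 12 leading falls it had the lowest mean in 8. FRT of the same experiment had the lowest mean for 3 of the rises and the highest for 4 of the falls, among them CG14292 and Mur18B. The snoRNA snoRNA:185 rose by 2.97 in the libraries labelled Ataxin-7 too, and the difference in change from non-stop was -0.07 ± 0.45 (SE), limma adjusted p = 0.921.

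**Figure D5:**
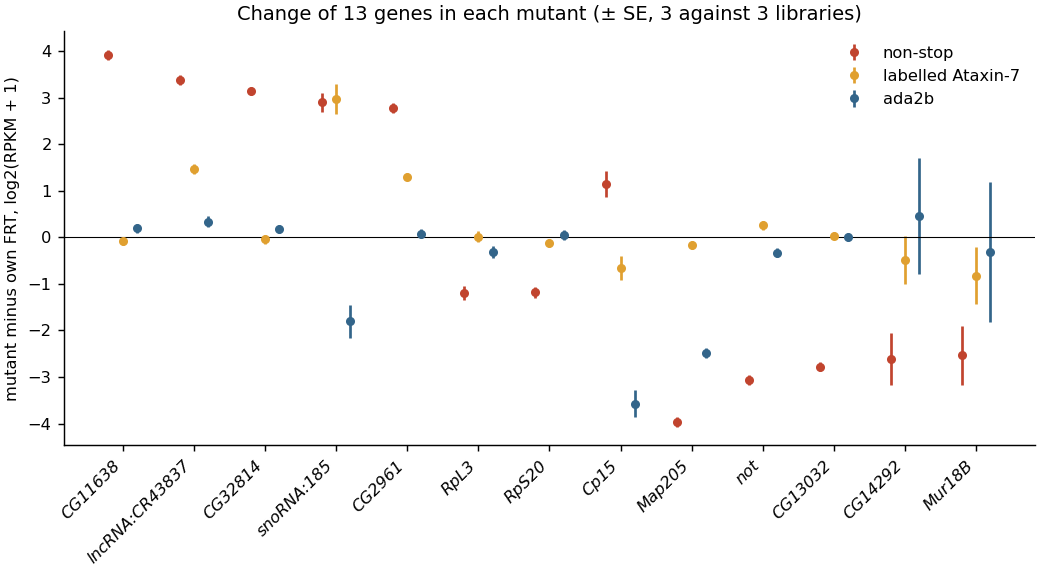
Change of 13 genes (y axis, mutant minus FRT of its own experiment, log2(RPKM + 1)) in non-stop (red), the libraries labelled Ataxin-7 (yellow) and ada2b (blue); bars are limma standard errors, with 3 libraries in each group. CG11638 rose by 3.92 in non-stop and changed by -0.07 and 0.20 in the others, and RpL3 changed by -1.19, 0.02 and -0.31.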

How the data were processed

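PolyA RNA of whole ovaries was sequenced from TruSeq Stranded RNA libraries. According to the submitters' processing notes, CASAVA 1.8.2, TopHat2 2.0.13 and edgeR 3.14.0 were used with the dm3 genome. The counting settings, strand included, are not given in the sources used here. The deposited values are RPKM per gene, made by the authors with scaled library totals, separately for each experiment. Levels set across experiments are therefore on separately scaled values. With the deposited lengths, 100% of values came out as whole reads (tolerance 0.001). Symbols, biotypes and chromosome arms were taken by gene ID from a later annotation, BDGP6, which matched 15002 of the 15682 IDs, and no coordinates from it are printed.

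Genes with a mean of at least 1 RPKM over the 6 libraries were kept, and log2(RPKM + 1) was fitted with limma 3.58.1 in R 4.3.3, with a variance trend and Benjamini-Hochberg adjustment over all genes tested. A gene was called at an adjusted p under 0.05. Differences between mutants were tested as interactions over 12 libraries. Single values were tested with exact permutation tests (scipy 1.17.1). The code was tested on simulated data. Where replicates are libraries of one label, p-values measure the spread between these libraries. The members and gene lists were chosen with earlier results of these data known. Named genes were not, the 12 largest rises and 12 largest falls among called genes whose groups do not overlap, the 8 most abundant called genes and, from each list, up to 4 called members with the largest change, with the 2 most abundant members of marker lists. Other genes given with values (Ada2b, Ada3, Atxn7, CG31998, Dyrk3, Gcn5, Hsp110, Hsp22, RpL38, RpS19b, mav, Sgf29, snRNA:U4atac and trx) were chosen after their values were seen. Of 1219 list entries, 87 were not matched to the table. Alternatives were another pseudocount, other filters, quantile normalization, a common median, no trend, a replicate block, a fit of all 18 libraries, leaving out each library, leaving out 3L, limma voom on the recovered reads (3880 genes called) and, chosen after seeing the data, library totals without the scaling factor. Depth, from 32902742 to 37217778 reads on genes, made 1 RPKM worth 30.6 to 39.4 reads per kb.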

Additional observations from a re-analysis of the deposited data

Results flagged for a closer look

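For the 5 largest rises and the 5 largest falls, the change in non-stop was tested against the change in each of the other mutants relative to its own FRT control, and 16 of these 20 differences were called. Values are differences on log2(RPKM + 1), non-stop minus the other mutant, with 3 libraries in each group. The genes were chosen by their change in non-stop, and mutant and experiment cannot be told apart.

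The rise of CG11638 was larger in non-stop, by a difference of 3.996 ± 0.13 (SE, limma adjusted p = 4.39e-09) from the libraries labelled Ataxin-7 and 3.72 ± 0.14 (SE, limma adjusted p = 2.56e-08) from ada2b, where its own changes were -0.07 and 0.20. For lncRNA:CR43837 the rise was larger, by a difference of 1.92 ± 0.15 (SE, limma adjusted p = 5.24e-06) from the libraries labelled Ataxin-7 and 3.04 ± 0.16 (SE, limma adjusted p = 2.99e-07) from ada2b, where its own changes were 1.47 and 0.34. CG32814, which overlaps CG11638, differed as well, by a difference of 3.19 ± 0.12 (SE, limma adjusted p = 2.57e-08) from the libraries labelled Ataxin-7 and 2.97 ± 0.12 (SE, limma adjusted p = 6.12e-08) from ada2b, where its own changes were -0.04 and 0.18. CG2961 rose more in non-stop, by a difference of 1.48 ± 0.10 (SE, limma adjusted p = 1.84e-06) from the libraries labelled Ataxin-7 and 2.70 ± 0.14 (SE, limma adjusted p = 2.98e-07) from ada2b, where its own changes were 1.31 and 0.08. Map205 fell further in non-stop, by a difference of -3.79 ± 0.12 (SE, limma adjusted p = 4.39e-09) from the libraries labelled Ataxin-7 and -1.47 ± 0.15 (SE, limma adjusted p = 1.2e-05) from ada2b, where its own changes were -0.17 and -2.49. The mutated gene, not, fell in non-stop, by a difference of -3.31 ± 0.13 (SE, limma adjusted p = 2.94e-08) from the libraries labelled Ataxin-7 and -2.73 ± 0.13 (SE, limma adjusted p = 1.92e-07) from ada2b, where its own changes were 0.26 and -0.33. CG13032 fell in non-stop, by a difference of -2.81 ± 0.11 (SE, limma adjusted p = 2.57e-08) from the libraries labelled Ataxin-7 and -2.78 ± 0.13 (SE, limma adjusted p = 1.02e-07) from ada2b, where its own changes were 0.03 and 0.01. CG14292 differed from the libraries labelled Ataxin-7 by -2.13 ± 0.72 (SE, limma adjusted p = 0.0374), with widely spread FRT values. The small nucleolar RNA snoRNA:185 differed from ada2b by 4.70 ± 0.50 (SE, limma adjusted p = 1.4e-05), with its own change of -1.80 there.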

How the results depend on the processing

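The 3805 called genes stayed within 1.5 times that number under each alternative, from 2871 without FRT library 2 to 4285 in a fit of all 18 libraries. Leaving out each library in turn gave 2871 to 3678 called genes, 1502 to 1797 that rose, 1369 to 1881 that fell and 249 to 314 changed by at least 2-fold. The 267 genes changed by at least 2-fold became 410 with a pseudocount of 0.1, 163 when only genes averaging 5 RPKM or more were kept, and 419 with limma voom. Library totals without the scaling factor gave 3096 genes that rose and 962 that fell. The deviations of same-numbered libraries correlated at -0.13, 0.11 and 0.13, and 1 of 3 correlated best with its own number. With 3 libraries per group these values cannot settle whether replicate numbers pair the libraries. With the replicate block 3501 genes were called, 275 of them changed by at least 2-fold, and the differences between mutants numbered 2316 against the libraries labelled Ataxin-7 and 5184 against ada2b.

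Of 320 named genes 53 lost their call under at least 1 alternative, and 10 changed sign, none of them called with the deposited values. Under quantile normalization Vm26Aa went to 0.0345, Vm34Ca to 0.14, Yp2 to 0.30, Yp1 to 0.45 and Hr39 to -0.0141. Without non-stop library 3, Yp1 was at 0.0859, Act57B at -0.0275 and srp at 0.0329, and without FRT library 3, Cp38 was at -0.14. Over the leave-one-out fits Cp38 ranged from -0.14 to 0.61, Yp1 from -0.42 to 0.0859, Act57B from -0.0275 to 0.38, srp from -0.27 to 0.0329 and Hr39 from -0.0021 to 0.0962. Without the scaling factor Act87E was at 0.0314, srp at 0.0031 and janB at 0.0584. Hr39 was at -0.0065 with a common median and at -0.0021 without non-stop library 1. The cause of these shifts was not tested.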
